A study of Mus musculus with 8 samples.

Results

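Excitatory neurons 13 were 523 of the 29425 nuclei with a deposited cell type, and 1 of 21 such types, in single nucleus RNA sequencing (snRNAseq) of the adult mouse hippocampus. Their members are all nuclei that carry this deposited name, and the transcripts given as their markers are *Vwc2l*, *Olfm3*, *Cntn6* and *Hs3st4*. The study compared *Wls* fl/-;*Gfap-Cre* mice, called mutant, with *Wls* fl/+;*Gfap-Cre* mice, called control. Wls (Wntless) escorts Wnt proteins to the cell surface for secretion. The mutant has a null and a floxed allele of *Wls*, whereas the control has a wild type and a floxed allele, and both genotypes carry the Cre transgene. Cre is driven by a *Gfap* promoter, so that the floxed allele is recombined in cells that have used this promoter and in their descendants. All mice were 12 weeks old. Each snRNAseq library came from both hippocampi of 1 mouse that the methods of the study give as male, with 2 mice per genotype. Bulk RNAseq was made from another 2 libraries per genotype.

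Excitatory neurons of the hippocampal formation release glutamate, which the transporters Slc17a7 and Slc17a6 load into synaptic vesicles. They include granule cells, pyramidal and mossy cells, and the projection neurons of the subiculum and the adjoining cortex, where deep-layer classes differ in the targets of their axons and in transcripts such as *Tshz2*, *Fezf2*, *Tle4* and *Foxp2*. The 4 given markers encode proteins of different kinds. Vwc2l is a secreted protein with von Willebrand factor C domains, related to antagonists of bone morphogenetic proteins (BMPs). Olfm3 is a secreted glycoprotein of the olfactomedin family, Cntn6 is a contactin, an adhesion molecule of the immunoglobulin family, and Hs3st4 is a sulfotransferase that modifies heparan sulfate chains.

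The nuclei of excitatory neurons 13 were spread unevenly over the mice, with 198 in mutant replicate 1, 149 in mutant replicate 2 and 88 in each of control replicates 1 and 2. The median number of unique molecular identifiers (UMIs, each marking 1 captured RNA molecule) per nucleus was 4200.5 and 7958 in the mutants and 7025.5 and 10906.5 in the controls. Mutant replicate 1 was thus the shallowest library and control replicate 2 the deepest. The summed UMIs of the cluster were 935784, 1224438, 645489 and 1001838 in mutant replicates 1 and 2 and control replicates 1 and 2, and values below follow this order of mice. Levels are given as CPM, the UMIs of a gene scaled by the total UMIs of the cluster in that mouse. The 4 libraries shared 87 barcodes, counted over their pairs, and nuclei of excitatory neurons 13 shared 0. Mitochondrial transcripts made up 0.0409%, 0.0435%, 0.0342% and 0.0359% of the UMIs of the cluster.

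Each of the 4 markers was higher in excitatory neurons 13 than in any other deposited type. This is a description with no test, since the nuclei had been clustered on their transcripts. *Vwc2l* (chr1:70725715-70885397, mm10, plus strand) stood at 1501, 1229, 1359 and 1192 CPM. The next type, excitatory neurons 7, had 452 CPM over both controls, and the ratio was 2.78 with a pseudocount of 1 CPM. *Olfm3* (chr3:114904078-115125722, plus strand) stood at 1094, 1091, 1029 and 1039 CPM, with a ratio of 3.98 to excitatory neurons 8. The values of both genes lay close together. Mutant and control overlapped for *Vwc2l*, and both mutants were above both controls for *Olfm3*, as for 18.9% of all genes tested.

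*Cntn6* (chr6:104492790-104863406, plus strand) stood at 1173, 978, 1370 and 977 CPM, with a ratio of 3.105 to oligodendrocyte precursor cells. *Hs3st4* (chr7:123982869-124398989, plus strand) stood at 3910, 3910, 4051 and 3956 CPM. *Hs3st4* was the marker least particular to the cluster, since excitatory neurons 8 had 2960 CPM over both controls, a ratio of 1.35. CA3 and CA2 pyramidal cells also had it, at 1895 and 1799 CPM.

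**Figure D1:**
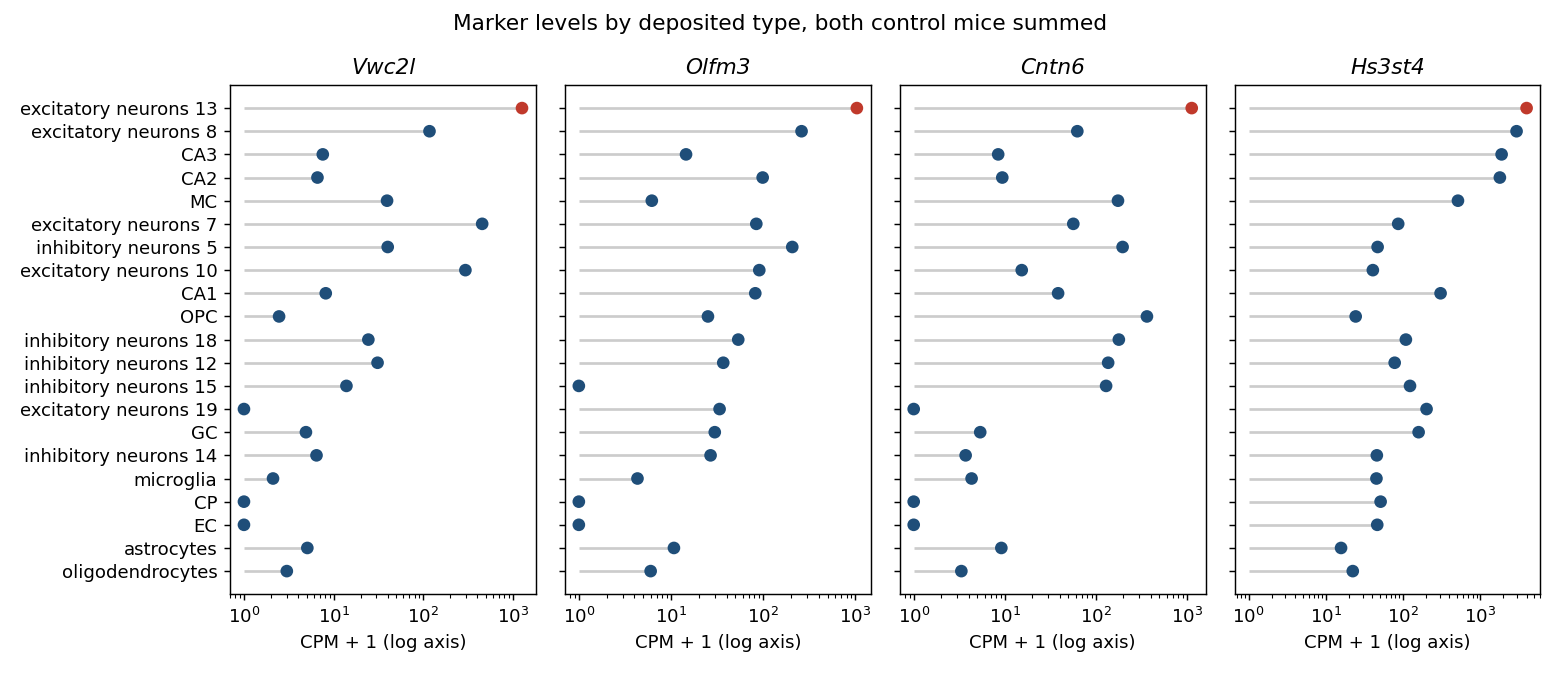
Level of the 4 markers in each of the 21 deposited types, as CPM + 1 on a log axis, over the nuclei of both control mice (excitatory neurons 13 in red). *Hs3st4* was nearly as high in excitatory neurons 8 (2960 CPM) as in excitatory neurons 13 (3993 CPM), whereas the ratio to the highest other type was 3.98 for *Olfm3* and 3.105 for *Cntn6*.

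Single nuclei held the markers together. All 523 nuclei had UMIs of at least 2 of the 4 markers, and 73.7%, 70.5%, 85.2% and 80.7% of nuclei had UMIs of all 4. *Hs3st4* was seen in 100% of nuclei of each mouse, and *Cntn6*, the marker seen least often, in 82.8%, 73.2%, 87.5% and 83.0%. Because depth differed between the libraries, each nucleus was also thinned at random to 1500 UMIs, which left out 0 nuclei.

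After thinning, *Vwc2l* was seen in 78.8%, 76.5%, 81.8% and 81.8% of nuclei, against 0%, 0.602%, 0% and 0% of microglia, a type that should lack it. *Olfm3* was seen in 71.7%, 79.9%, 70.5% and 73.9%, and *Cntn6* in 67.2%, 58.4%, 69.3% and 67.0%. *Hs3st4* was seen in 99.0%, 98.0%, 96.6% and 97.7% of thinned nuclei, against at most 7.69% of microglia, which was 1 of 13 nuclei in mutant replicate 1. In the other mice, with 332, 105 and 287 microglia, *Hs3st4* was seen in 4.82%, 1.90% and 5.57%. At equal depth the markers were thus far above the share in microglia, which in mutant replicate 1 rests on 13 nuclei. Similar types came closer. Thinned *Hs3st4* was seen in 97.8%, 98.4%, 95.7% and 97.8% of excitatory neurons 8, and *Vwc2l* in 29.1%, 41.5%, 41.7% and 39.5% of excitatory neurons 7. Within excitatory neurons 13 the thinned shares of mutant and control overlapped for *Olfm3* and *Cntn6*. Both mutant shares of *Vwc2l* lay below, and those of *Hs3st4* above, the shares of the controls. How many other genes have thinned shares in such an order was not counted, so this is a description only.

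Of the 3753 genes of at least 50 CPM in excitatory neurons 13 of the controls, 205 had a ratio above 1 to the highest other type and 22 a ratio above 2. The highest ratio, 6.73, belonged to *B4galnt3*, a glycosyltransferase, at 106, 71.1, 110 and 99.8 CPM. *Skap1*, an adaptor protein best known from T cells, stood at 231, 187, 310 and 235 CPM, with a ratio of 4.91 that was 6.004 in control replicate 1 and 2.99 in control replicate 2. *Klhl1*, an actin-binding protein of neurons, stood at 299, 220, 249 and 235 CPM. The ratio of *Klhl1* was 4.75 over both controls but lay between 1.55 and 3.97 within single mice.

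*Sgcd*, a sarcoglycan of the dystrophin complex, stood at 5292, 5187, 5641 and 4793 CPM, with a ratio of 2.65. Among the 12 highest ratios were also the noncoding or uncharacterized *A330102I10Rik* and *D030068K23Rik*, *Cbln2*, a secreted synapse organizer, and *Cdh22*, a cadherin, with ratios from 2.31 to 2.44.

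The deposited name was checked against markers of transmitter type. Glutamatergic transcripts were present and GABAergic ones were nearly absent. *Slc17a7* stood at 217, 244, 297 and 313 CPM, against 374 CPM in the controls of excitatory neurons 8, the highest type. *Slc17a6* stood at 51.3, 38.4, 49.6 and 45.9 CPM. Of the defining GABAergic transcripts, *Gad1* had 11, 8, 4 and 8 UMIs and *Gad2* 5, 9, 0 and 5 UMIs. *Slc32a1*, the vesicular GABA transporter, and *Dlx1*, a factor of interneuron development, were at 0 in both controls. The list of 6 GABAergic markers summed to 38.5, 27.8, 13.9 and 18.0 CPM, with *Gad1* the most abundant at 7.28 CPM in the controls, against 3890 CPM in inhibitory neurons 18.

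Of the 6 transcripts that the study used to recognise inhibitory clusters, 2 were abundant, *Kcnip1* and *Rbms3*, whereas *Erbb4* and *Kcnmb2* were at 23.7 and 2.43 CPM in the controls. *Kcnip1*, a subunit of A-type potassium channels, stood at 601, 653, 541 and 674 CPM. In the controls it was at 622 CPM, close to the 611 CPM of inhibitory neurons 5 and the 607 CPM of oligodendrocyte precursor cells, and at 11.3 CPM in excitatory neurons 8. After thinning *Kcnip1* was seen in 41.9%, 53.0%, 46.6% and 56.8% of nuclei, and in at most 5.00% in excitatory neurons 7, 8 and 10 and CA1 pyramidal cells. *Rbms3*, an RNA-binding protein, stood at 376, 311, 367 and 310 CPM, against 25.2 CPM in excitatory neurons 8 and 892 CPM in inhibitory neurons 12.

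Markers of cortical projection neurons did not single out 1 class. *Tshz2*, a zinc finger protein of near-projecting neurons, stood at 3191, 3615, 2367 and 2762 CPM, with 2652 CPM in the controls of excitatory neurons 7. *Trhr*, the receptor of thyrotropin-releasing hormone, was at 49.2, 70.2, 21.7 and 33.9 CPM and at no more than 9.08 CPM in any other type of the controls. Of the corticothalamic list, *Tle4*, a corepressor, was at 622 CPM in the controls, *Fezf2*, a factor of deep-layer neurons, at 100 CPM and *Rprm* at 41.9 CPM, each above every other type. *Syt6* of the same list was at only 2.43 CPM, and *Foxp2* at 120 CPM, against 1870 CPM in excitatory neurons 19.

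In the layer 6b list *Cplx3*, *Nxph4* and *Moxd1* were at 0 in the controls, whereas *Nr4a2*, its most abundant member, was at 95.3 CPM. This list summed to 114, 94.7, 91.4 and 99.8 CPM, against 311 CPM in excitatory neurons 8, the highest other type. *Prox1*, the factor of dentate granule cells, had 2, 1, 5 and 7 UMIs. *Cpne4*, from the list for CA3 pyramidal cells, was high at 1599, 1403, 1847 and 1502 CPM, against 1422 CPM in CA2. Over 15620 genes the log2 CPM of excitatory neurons 13 correlated best with that of excitatory neurons 8 (Pearson's r = 0.946), followed by CA1 (0.920), excitatory neurons 7 (0.919) and excitatory neurons 10 (0.913). These correlations are across genes, which are not independent replicates, and the types share libraries.

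The lists for other cell types were low, with a few exceptions. Astrocyte markers summed to 1000, 1121, 993 and 1150 CPM, of which *Slc1a2*, the glutamate transporter, made up 1023 CPM in the controls, against 12725 CPM in astrocytes. Oligodendrocyte markers summed to 110, 189, 57.3 and 211 CPM, microglial markers to 90.8, 114, 55.8 and 88.8 CPM, and choroid plexus markers to 29.9, 86.6, 38.7 and 33.9 CPM. Markers of mossy cells, granule cells, endothelial cells and fibroblasts summed to at most 24.8 CPM in any mouse.

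Nuclei of excitatory neurons 13 were not uniform. On thinned counts, 24 of 2863 genes with a mean of at least 0.1 UMI had a ratio of variance to mean above 2 in all 4 mice, where the median of the lowest ratio was 0.904. The genes compared next were chosen after these values were seen and are given as a description. *Tenm3*, a teneurin that matches synaptic partners, had a lowest ratio of 3.97. *Dcc*, the netrin receptor, had one of 3.27, and *Htr2c*, a serotonin receptor, one of 2.01.

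UMIs of *Htr2c* and *Tenm3* were seen less often in the same nuclei than apart. *Htr2c* was seen in 39.4%, 30.9%, 29.5% and 36.4% of thinned nuclei, a range in which mutant and control overlapped. *Tenm3* was seen in 12.8%, 10.9%, 30.8% and 18.8% of the nuclei with *Htr2c* and in 70.0%, 56.3%, 56.5% and 73.2% of those without it. *Cntn6* was likewise seen in 44.9%, 19.6%, 57.7% and 43.8% of nuclei with *Htr2c* and in 81.7%, 75.7%, 74.2% and 80.4% of those without. In every mouse, then, both genes were less frequent where *Htr2c* was seen. In thinned microglia *Tenm3* was seen in 7.69% (1 of 13 nuclei), 4.52%, 0.952% and 2.09%, and *Htr2c* in 0%, 3.61%, 0.952% and 1.39%. The *Tenm3* shares of nuclei with *Htr2c* in the mutants, 10 of 78 and 5 of 46 nuclei, are thus not far above this background.

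Other pairs were ordered in the same way in all 4 mice. *Cntn6* was seen in 36.2%, 26.4%, 31.6% and 28.6% of nuclei with *Ptprt*, a receptor tyrosine phosphatase, and in 83.7%, 76.0%, 79.7% and 79.1% of those without it. *Fn1*, fibronectin, was seen in 25.5%, 19.05%, 20.9% and 8.51% of nuclei with *Tenm3* and in 1.92%, 5.81%, 2.22% and 4.88% of those without. *Fn1* was seen in at most 1.20% of thinned microglia and *Ptprt* in at most 3.31%. Across nuclei, on the share of each nucleus' UMIs, Spearman's correlation coefficient lay between -0.76 and -0.57 over the mice for *Tenm3* and *Htr2c*, and between -0.75 and -0.59 for *Lrrtm4*, a synaptic adhesion protein, and *Tshz2*. The coefficient lay between -0.69 and -0.53 for *Cntn6* and *Htr2c*. These nuclei share libraries, and depth differed among them. *Vwc2l* had no such order, as it was more frequent with *Htr2c* in 3 mice and less frequent in control replicate 1 (73.1% against 85.5%).

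**Figure D2:**
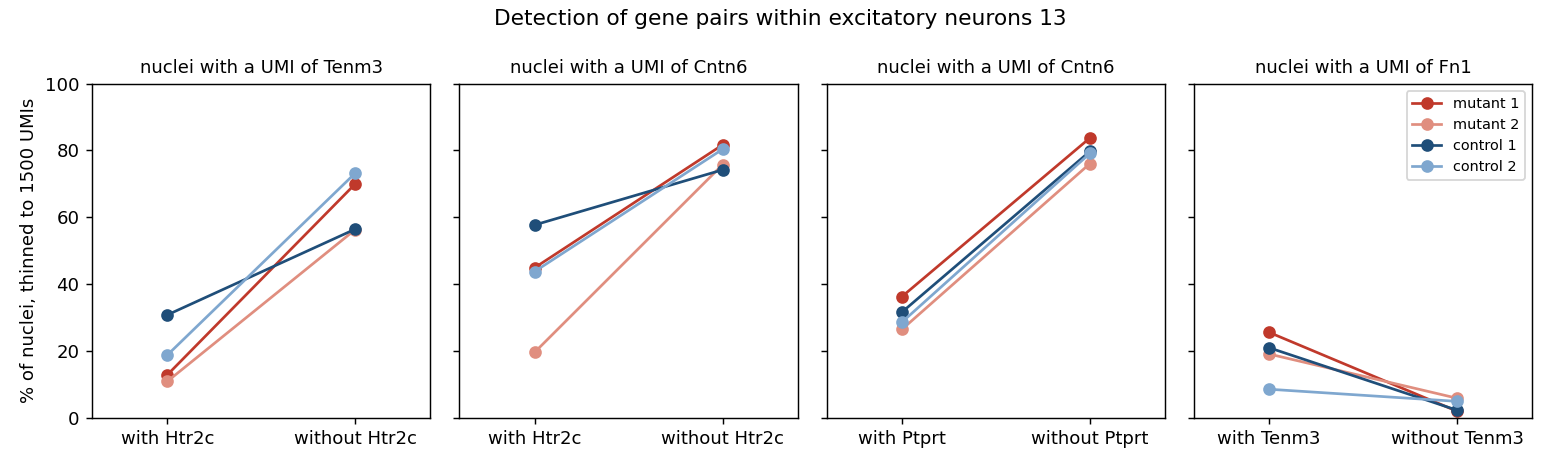
Pairs of transcripts within nuclei of excitatory neurons 13, with the percentage of nuclei that had a UMI of the second gene among nuclei with and without a UMI of the first, per mouse (lines), after thinning to 1500 UMIs. *Tenm3* was seen in 10.9% to 30.8% of nuclei with *Htr2c* and in 56.3% to 73.2% of those without.

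The next question was whether the cluster took a different share of nuclei in the mutant. Excitatory neurons 13 were 3.73% of 5304 nuclei (95% exact binomial interval 3.24 to 4.28) in mutant replicate 1 and 1.42% of 10460 (1.21 to 1.67) in mutant replicate 2. In the controls they were 1.36% of 6469 (1.09 to 1.67) and 1.22% of 7192 (0.982 to 1.51). Mutant replicate 1 stood apart, whereas the interval of mutant replicate 2 overlapped those of both controls. These intervals cover counting error only.

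The log2 fold change of the share was 0.99 (SE 0.669, n = 2 per genotype), which did not pass the edgeR quasi-likelihood test over 21 types (FDR = 0.533). No type was called higher (0%) or lower (0%), and at an unadjusted p below 0.05 there were 2 higher and 1 lower, which did not include excitatory neurons 13. Without mutant replicate 1 the log2 fold change was 0.14, and without mutant replicate 2 it was 1.53 (edgeR FDR = 0.139). The direction depended on the denominator. Mutant replicate 1 held few glia, with 13 microglia and 73 oligodendrocytes against 332 and 1112 in mutant replicate 2, 105 and 232 in control replicate 1 and 287 and 1029 in control replicate 2. Among neurons other than dentate granule cells the cluster was 4.07%, 2.14%, 2.86% and 2.88%, with a log2 fold change of 0.11 (edgeR FDR = 0.818). Dentate granule cells were 90 and 463 nuclei in the mutants and 2336 and 2007 in the controls, and among nuclei other than these the cluster was 3.80%, 1.49%, 2.13% and 1.70%. Among excitatory neurons 8, 10 and 13 alone it was 18.6%, 16.8%, 27.2% and 40.2%, lower in both mutants, with a log2 fold change of -0.91 (edgeR FDR = 0.0727). Excitatory neurons 8 and 10, the others in that denominator, numbered 581 and 286 nuclei in mutant replicate 1, 369 and 368 in mutant replicate 2, 162 and 74 in control replicate 1 and 91 and 40 in control replicate 2. Excitatory neurons 7, with 753, 352, 326 and 195 nuclei, were not part of that denominator. The share with them included was not tested.

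**Figure D3:**
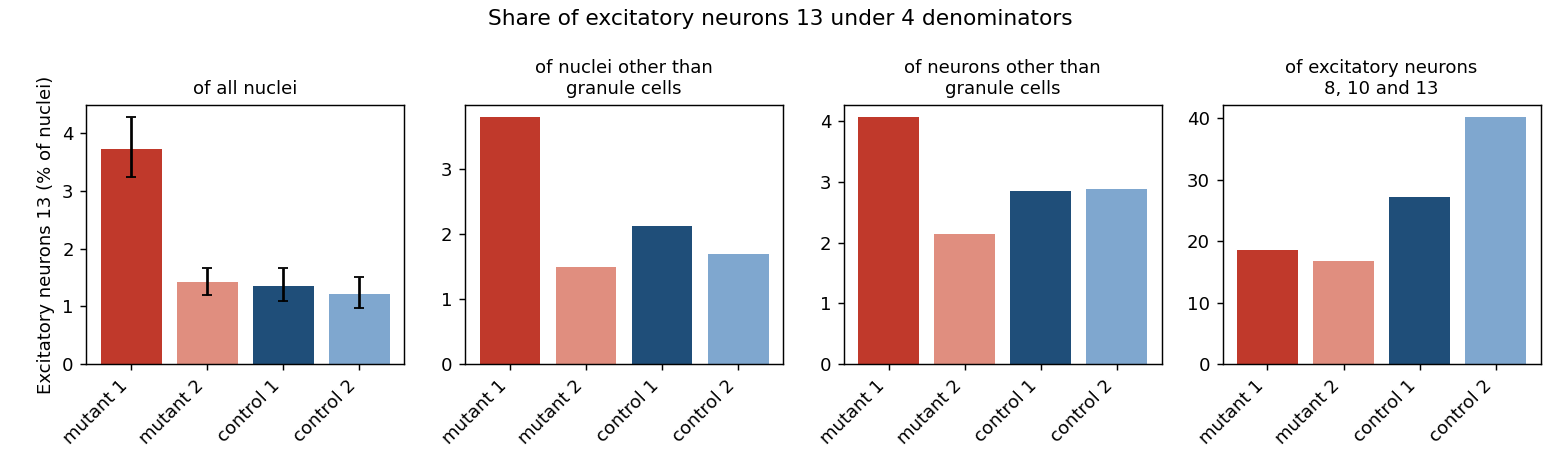
Excitatory neurons 13 as a percentage of nuclei in each of the 4 mice under different denominators, with exact 95% binomial intervals, shown for all nuclei only, that cover counting error alone. Against all nuclei mutant replicate 1 (3.73%) was above the other mice, and against excitatory neurons 8, 10 and 13 both mutants (18.6% and 16.8%) were below both controls (27.2% and 40.2%).

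The genotypes were then compared within the cluster, with UMIs summed per mouse. The targeted gene was examined first. *Wls* (chr3:159839672-159938664, plus strand) had 4 and 2 UMIs in the mutants and 9 and 11 in the controls. Both mutants lay below both controls, in the direction of the labels, as for 18.4% of all genes tested. The log2 fold change of -2.05 (SE 0.700) did not pass over all genes (edgeR FDR = 0.514), and the counts are small. *Wls* also passed the filter on low counts through the controls, where it was higher. Which exons the floxed allele loses, and whether the counted reads lie in them, was not examined here.

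No gene passed the thresholds of a fold change above 2 and FDR below 0.05 in either direction among 9770 tested with edgeR (0% higher, 0% lower). At an unadjusted p below 0.05, 374 genes (3.83%) were higher and 329 (3.37%) lower in the mutant. With a fold change above 2 as well, 131 (1.34%) were higher and 84 (0.86%) lower. DESeq2 also called 0 in each direction, but the count of 0 depended on the setting. With a replicate block 49 genes were called higher and 33 lower, and there were 15 and 24 without a filter on low counts, 108 and 29 without control replicate 2, 22 and 8 without mutant replicate 1, and 5 and 3 without mutant replicate 2. None of the 4 markers passed. The log2 fold change was 0.13 (SE 0.168) for *Vwc2l*, 0.11 (SE 0.154) for *Olfm3*, -0.10 (SE 0.187) for *Cntn6* and -0.005 (SE 0.150) for *Hs3st4*, with edgeR FDR from 0.929 to 0.996.

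The 5 genes with the lowest p in the lower direction were *Ahsa1*, *Hsph1*, *Caly*, *Hspa5* and *Haghl*, none of which passed here. All 5 passed with a replicate block (edgeR FDR from 7.29e-06 to 0.000232) and without a filter on low counts (edgeR FDR up to 0.0197). *Ahsa1*, an activator of the chaperone Hsp90, stood at 18.2 and 21.2 CPM in the mutants and 68.2 and 60.9 CPM in the controls. Its log2 fold change was -1.66 (SE 0.285, edgeR FDR = 0.122). *Hsph1*, a chaperone of the Hsp110 family, stood at 23.5, 28.6, 80.6 and 70.9 CPM, with a log2 fold change of -1.48 (SE 0.270, edgeR FDR = 0.122). Both genes separated the genotypes without overlap, which 18.4% of all tested genes did in this direction.

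*Hspa5*, the chaperone of the endoplasmic reticulum, stood at 36.3, 31.0, 60.4 and 113.8 CPM, with a log2 fold change of -1.38. *Caly*, a vesicular protein of neurons, and *Haghl* had log2 fold changes of -1.08 and -1.07. Over all nuclei of the libraries and in excitatory neurons 8, both mutants were below both controls for all 5 genes, but the genotypes overlapped for *Caly* in excitatory neurons 10 (68.8, 54.3, 65.2 and 139 CPM) and for *Haghl* in excitatory neurons 7 (75.7, 40.1, 103 and 73.05 CPM). *Hsph1* stood at 25.4, 29.1, 53.2 and 55.9 CPM over all nuclei of the libraries, and at 27.1, 30.3, 63.5 and 72.2 CPM in excitatory neurons 8. *Ahsa1* stood at 22.0, 27.6, 49.5 and 64.6 CPM over all nuclei. These genes were thus lower in both mutants in the cluster and in the libraries as a whole. Values over all nuclei, here and below, mix types in unlike proportions. Dentate granule cells were 90 and 463 nuclei in the mutants and 2336 and 2007 in the controls. The parts of this mixture and of library preparation were not tested.

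In the higher direction, none of the 5 genes with the lowest p (*Gm12394*, *Tmem163*, *Erbb4*, *Cntnap5b* and *4930578G10Rik*) passed here. All but *4930578G10Rik*, whose fold change stayed below 2, passed with a replicate block (edgeR FDR from 9.81e-10 to 3.29e-05) and without a filter on low counts (edgeR FDR up to 0.0043). *Tmem163*, a zinc transporter of vesicles, stood at 47.0 and 45.7 CPM in the mutants and 10.8 and 14.97 CPM in the controls, with a log2 fold change of 1.83 (SE 0.332, edgeR FDR = 0.122). The noncoding or uncharacterized *Gm12394* stood at 152, 216, 55.8 and 85.8 CPM, with a log2 fold change of 1.39 (edgeR FDR = 0.122). Over all nuclei *Tmem163* stood at 21.2, 24.7, 9.49 and 12.1 CPM and *Gm12394* at 90.9, 78.2, 52.7 and 63.1 CPM. Both genes were thus higher in both mutants over all nuclei, as also in CA1 pyramidal cells. Among the other types the order varied. In excitatory neurons 8 *Tmem163* stood at 84.6, 93.3, 50.8 and 51.4 CPM and *Gm12394* at 101, 95.1, 43.2 and 58.3 CPM, both higher in both mutants. The genotypes overlapped for *Tmem163* in excitatory neurons 7 (21.3, 36.2, 22.8 and 48.7 CPM) and for both genes in excitatory neurons 10. *Erbb4*, a neuregulin receptor, stood at 78.0, 56.4, 18.6 and 27.0 CPM, with a log2 fold change of 1.54 (edgeR FDR = 0.233). In excitatory neurons 7 (50.0, 59.0, 25.2 and 30.1 CPM), 8 (56.1, 95.5, 54.6 and 31.9 CPM) and 10 it was also higher in both mutants. In CA1 pyramidal cells the genotypes overlapped. *Erbb4* is abundant in interneurons and also stood at 1023, 993, 618 and 653 CPM over all nuclei, while the GABAergic list in the cluster summed to 38.5, 27.8, 13.9 and 18.0 CPM. The part of RNA from other cells was not tested. *Cntnap5b*, a partner of contactins, stood at 233, 192, 118 and 95.8 CPM, with a log2 fold change of 1.03 (edgeR FDR = 0.261). Over all nuclei *Cntnap5b* stood at 344, 243, 465 and 348 CPM, lower in both mutants. In excitatory neurons 8 (163, 190, 73.6 and 137 CPM) and 7 it was higher in both mutants, and in excitatory neurons 10 the genotypes overlapped.

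**Figure D4:**
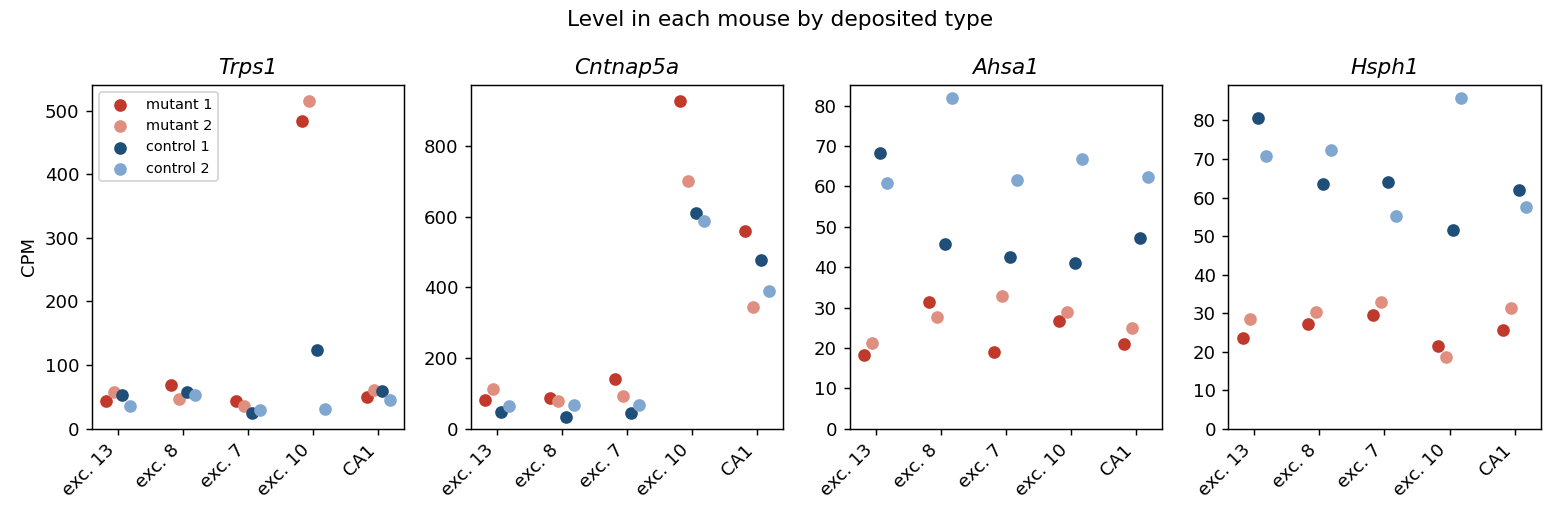
CPM per mouse of *Trps1*, *Cntnap5a*, *Ahsa1* and *Hsph1* in excitatory neurons 13 and in other types, with each point a mouse. *Trps1* was high in the mutants of excitatory neurons 10 (484 and 516 CPM, edgeR FDR = 0.0807 within that type) and not in those of excitatory neurons 13 (42.7 and 58.0 CPM), and *Hsph1* was lower in both mutants in each type shown.

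Lists of genes related to the markers held no called gene. Of 18 tested heparan sulfate enzymes, *Hs6st2* and *Hs6st3*, which add sulfate at another position than Hs3st4, were among 3 higher at an unadjusted p below 0.05, and *Ndst4* was the 1 lower, where 3.83% and 3.37% of all genes were. The other of the 3 was *Sulf1*, which removes sulfate outside the cell. *Hs6st2* had 63, 102, 23 and 53 UMIs. *Ndst4* had only 6, 4, 8 and 12 UMIs. It passed the filter on low counts through the controls, where it was higher, so its direction is a description only. The median log2 fold change of this list was 0.04, against 0.01 over all genes tested. Of 9 olfactomedin proteins and 13 BMP ligands, receptors and antagonists, 0 passed even the unadjusted threshold in either direction, with medians of 0.09 and -0.10.

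All 16 contactins and partners were tested, and 5 were higher and 0 lower at an unadjusted p below 0.05, with a median of 0.23. Over all genes 3.83% were higher and 3.37% lower, and of the 532 genes with bodies above 300 kb, which *Cntn6* and *Cntnap5b* are among, 74 were higher and 6 lower. Besides *Cntnap5b* these were *Cntn5*, *Cntnap3*, *Cntnap5a* and *Ptprg*. *Cntn5*, another contactin, stood at 272, 440, 75 and 244 UMIs, with a log2 fold change of 0.86 (SE 0.249, edgeR FDR = 0.415). *Cntn6* of the same family was at -0.10. Beside the same shares of all genes, ionotropic glutamate receptors had 4 of 15 higher and 0 lower, with a median of 0.24, among them *Gria4* (0.69, edgeR FDR = 0.415) and *Grik4* (1.00, edgeR FDR = 0.407). Sodium and calcium channels had 4 of 18 higher and 0 lower, with a median of 0.26, among them *Cacna1b* (0.68, edgeR FDR = 0.429). The part of gene length in these counts was not tested.

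The counts of the remaining lists stand beside the same shares, 3.83% of all genes higher and 3.37% lower. Axon guidance genes had 3 of 27 higher and 0 lower, cadherins 2 of 18 higher and 1 lower, and potassium channels 1 of 24 higher and 0 lower. Of 18 tested genes of the Wnt pathway, *Wls* was the 1 lower and 0 were higher, with a median of 0.01. *Axin2*, a feedback target of Wnt signaling, had 12, 16, 6 and 5 UMIs and a log2 fold change of 0.96 (edgeR FDR = 0.754). *Axin2* passed the filter on low counts through the mutants and *Wls* through the controls, so these directions are a description only. Of 9 immediate early genes 1, *Bdnf*, a neurotrophin, was lower, and the median was -0.31. Metabotropic glutamate receptors had 0 of 7 in either direction, the list of GABA-A receptors 1 of 12 lower, which was *Gabbr1*, a GABA-B receptor subunit that the list also holds, and heparan sulfate core proteins 1 of 6 higher. Of neuropeptides and hormone receptors only 4 of 20 were tested, as the rest did not pass the filter on low counts. Of the 4, *Sst*, *Trhr* and *Oprm1* were higher and *Cck* lower at an unadjusted p, and 0 were called. The part of RNA from other cells was not tested for these genes either.

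Log2 fold changes in the cluster moved with gene length. The median was -0.17 over 1481 genes with bodies under 10 kb, of which 34.8% were higher in the mutant, and 0.15 over 532 genes above 300 kb, of which 75.9% were higher. In the classes of 10 to 30 kb, 30 to 100 kb and 100 to 300 kb the medians were -0.03, 0.03 and 0.08. Genes under 10 kb took 8.59% and 9.19% of the UMIs in the mutants and 8.82% and 10.5% in the controls. Control replicate 2, the deepest library by median UMIs per nucleus, thus stood apart, and control replicate 1 lay within the mutants. *Ahsa1*, *Hspa5* and *Haghl* have gene bodies of 7.52, 5.58 and 5.83 kb, and *Erbb4*, *Cntnap5a* and *Cntnap5b* of 1076, 903 and 713 kb. The part of length and depth in these differences was not tested.

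**Figure D5:**
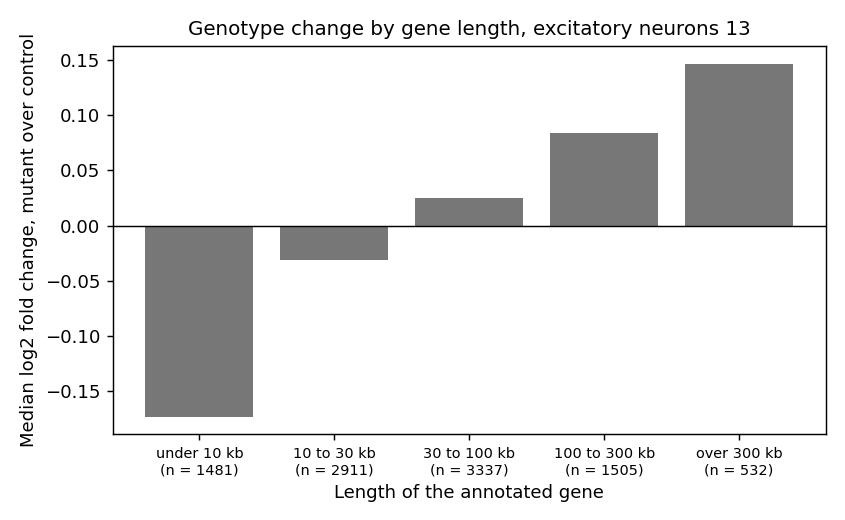
Median log2 fold change of mutant over control in excitatory neurons 13 (bars) in classes of gene length, for 9766 tested genes with a known length. The median went from -0.17 under 10 kb to 0.15 above 300 kb.

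*Trps1* and *Cntnap5a* were examined because the study names them for excitatory neurons. In excitatory neurons 13 *Trps1* (chr15:50654752-50890463, minus strand), a zinc finger repressor, stood at 42.7, 58.0, 52.7 and 35.9 CPM, and the genotypes overlapped (log2 fold change 0.26, SE 0.289, edgeR FDR = 0.896). *Cntnap5a*, a partner of contactins, stood at 82.3, 111, 48.0 and 62.9 CPM. Both mutants were above both controls, as for 18.9% of all genes tested, but *Cntnap5a* did not pass (0.82, SE 0.245, edgeR FDR = 0.415). With a replicate block its edgeR FDR was 0.0119, but the fold change without the block was below 2.

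Whether the genotype effect in the cluster differed from that in excitatory neurons 8 and 10 together was tested as an interaction within mice, over 11302 genes. No gene was called above (0%) and 1 was called below (0.00885%), which was *Trps1*. At an unadjusted p below 0.05 there were 335 above and 251 below. *Trps1* had a difference of log2 fold changes of -2.01 (SE 0.259, edgeR FDR = 0.00677). The difference came with excitatory neurons 10, where *Trps1* stood at 484 and 516 CPM in the mutants and 124 and 30.5 CPM in the controls. Within excitatory neurons 10 alone the genotype effect on *Trps1* did not pass (log2 fold change 2.69, edgeR FDR = 0.0807). In excitatory neurons 8 it stood at 68.7, 46.9, 58.4 and 52.8 CPM. Against excitatory neurons 10 alone the difference was -2.65 (edgeR FDR = 0.000413), and against excitatory neurons 8 alone it was 0.19 (edgeR FDR = 0.997). Without control replicate 2 it was -1.84 and no longer passed (edgeR FDR = 0.0893). With clusters as separate samples, in place of the mouse as a term, it was -1.91 and did not pass either. The number of nuclei behind these values also differed, as 286 and 368 nuclei of excitatory neurons 10 were found in the mutants and 74 and 40 in the controls.

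Other genes with low p in this interaction did not pass. *Grik4*, a kainate receptor subunit, stood at 235 and 316 CPM in the mutants and 83.7 and 192 CPM in the controls of excitatory neurons 13, with a difference of 1.00 (edgeR FDR = 0.179). *Col25a1*, a membrane collagen, stood at 127, 175, 91.4 and 78.9 CPM, with a difference of 1.67 (edgeR FDR = 0.208). *Camk2d*, a calcium-dependent kinase, had a difference of -1.07 (edgeR FDR = 0.255). *Cntnap5a* had one of 0.12 (edgeR FDR = 0.999).

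Bulk RNAseq of the hippocampus, which was not used in the clustering, was asked whether transcripts of the cluster differ in whole tissue. The 4 bulk libraries held 59786200, 79576200, 56002400 and 66684500 expected counts. The replicates 2 of both genotypes went against the male sex given in the methods. *Xist*, expressed from the inactive X chromosome, stood at 1.44, 230, 1.05 and 518 CPM, and *Ddx3y*, on the Y chromosome, at 54.5, 0.352, 58.3 and 0.343 CPM. In snRNAseq all 4 mice had *Ddx3y* (31.6 to 53.8 CPM over all nuclei) and little *Xist* (1.60 to 3.49 CPM). Each bulk genotype thus had 1 library of either kind.

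All 30 genes with the highest ratios in excitatory neurons 13 were tested in bulk RNAseq, where 41 of 20687 genes were called higher (0.198%) and 209 lower (1.01%) at FDR below 0.05. Of the 30 genes 0 were called higher and 1 lower. At an unadjusted p below 0.05, 0 were higher and 2 lower, where 8.86% and 9.94% of all genes were. With 60 marker genes, of which 57 were tested, 10 were higher and 3 lower at this p, with a median of 0.03. The median log2 fold change of the 30 was -0.06, against 0.01 over all genes, and 12 of 30 were positive. The 1 called gene, *St3gal1*, a sialyltransferase, stood at 12.4 and 8.36 CPM in the mutants and 31.0 and 28.6 CPM in the controls (log2 fold change -1.52, SE 0.198, edgeR FDR = 0.0449). With the replicate number, which goes with the *Xist* and *Ddx3y* levels, as a block, 0 of the 30 genes were called lower, as also without either control library. In nuclei of the cluster *St3gal1* had a log2 fold change of -0.05 (edgeR FDR = 0.982). In bulk tissue, fewer cells of a type and less RNA per cell cannot be told apart. Most RNA of these genes also lay outside the cluster. Of their UMIs over all nuclei, a median of 21.3%, 12.2%, 14.2% and 13.05% over the 30 genes came from excitatory neurons 13, and at most 49.1% for any of them in any mouse. For *Vwc2l* the share was 40.6%, 34.3%, 37.7% and 48.2%, and for *Hs3st4* 17.2%, 8.76%, 11.9% and 11.2%. The bulk values are therefore no measure of the cluster alone.

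None of the 4 markers passed in bulk tissue. *Vwc2l* stood at 2.97 and 1.47 CPM in the mutants and 3.69 and 3.604 CPM in the controls (log2 fold change -0.72, edgeR FDR = 0.345), and *Cntn6* at 4.69, 3.46, 5.23 and 4.69 CPM (-0.29, edgeR FDR = 0.512). *Olfm3* stood at 20.9, 23.1, 17.7 and 19.6 CPM (0.24, edgeR FDR = 0.295), and *Hs3st4* at 143, 137, 136 and 120 CPM (0.13, edgeR FDR = 0.434). Both mutants lay below both controls for *Vwc2l* and *Cntn6*, as for 25.4% of all genes, and above them for *Olfm3* and *Hs3st4*, as for 25.8%. For *Cntn6*, mutant replicate 1 and control replicate 2 nearly tied, at 4.690 and 4.692 CPM. *Wls* stood at 3.67, 6.86, 13.2 and 13.03 CPM, lower in both mutants without passing (-1.31, edgeR FDR = 0.117). *Cntnap5a*, which stood higher in both mutants in nuclei of the cluster, fell in bulk tissue, at 17.8, 16.1, 36.0 and 38.3 CPM (-1.13, edgeR FDR = 0.0206). Over all nuclei of snRNAseq it stood at 553, 363, 568 and 468 CPM, and the genotypes overlapped, as also in CA1. In excitatory neurons 7, 8 and 10 both mutants were above both controls, as in the cluster.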

How the data were processed

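For snRNAseq the authors aligned reads to an mm10 pre-mRNA index with Cell Ranger 3.1.0, so that intronic reads count, and deposited raw UMI counts per gene and nucleus for the nuclei they kept, with a cell type from their own batch correction and clustering. A size factor per nucleus, a ratio that the authors deposited, was not used. For bulk RNAseq the authors used RSEM 1.3.0 with Bowtie2 2.2.9 on mm10 and deposited expected counts, TPM and FPKM. The expected counts were rounded here, and the TPM and FPKM values the authors deposited were not used. A matrix of signal, expected counts divided by 1 size factor per library, was deposited by the authors and used only in an alternative with limma. 0 columns of per-sample values were left out.

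Cluster members and gene lists were chosen with earlier results of these data known. UMIs were summed per mouse, the unit of replication, and compared with edgeR 4.0.16 in R 4.3.3 (quasi-likelihood, filterByExpr, TMM, Benjamini-Hochberg over all genes tested) at a fold change above 2 and FDR below 0.05, and in bulk at FDR below 0.05. Standard errors were derived from the fold change and the F statistic. The study's regression over single nuclei was not run. The interaction held the mouse as a term. Nuclei numbers were compared over 21 types with total nuclei as library size. No permutation test was run, since the smallest two-sided exact p for 2 against 2 is 0.33. Gene positions are from GENCODE on GRCm38 (mm10). Doublet calling with Scrublet marked 2, 688, 173 and 223 nuclei and 0, 3, 3 and 4 in the cluster. In mutant replicate 1 it marked 0.038% and is taken not to have worked, and marked nuclei were kept except in an alternative. The tests were tested on simulated data.

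Genes named are the 4 markers, *Wls*, *Trps1*, *Cntnap5a*, *Xist* and *Ddx3y*, genes of the 12 highest ratios, members of the lists, and for each test the genes past its thresholds or, with fewer than 5, the 5 of lowest p per direction. Genes varying within the cluster, and *St3gal1*, were chosen after their values were seen. Some genes that this rule names are not reported here. Alternatives were DESeq2 1.42.0, RLE scaling, no filter, other thresholds, a replicate block, other denominators and comparison clusters, thinned nuclei, other pseudocounts and leaving out each mouse. The comparisons with excitatory neurons 7, and ratios over types with at least 50 control nuclei, were added after seeing the data.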

Additional observations from a re-analysis of the deposited data

Results flagged for a closer look

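The genotype effect on *Trps1* differed between excitatory neurons 13 and excitatory neurons 8 and 10 together, in a test of the difference itself. The difference of log2 fold changes was -2.01, with *Trps1* at 42.7 and 58.0 CPM in the mutants and 52.7 and 35.9 CPM in the controls of excitatory neurons 13. It rests on excitatory neurons 10, and without control replicate 2, whose 40 nuclei of that type had 30.5 CPM, it was -1.84 with an edgeR FDR of 0.0893. Within excitatory neurons 10 alone the genotype effect was 2.69 and did not pass (edgeR FDR = 0.0807), and with clusters as separate samples the difference was -1.91 and was not called.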

How the results depend on the processing

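The count of genes called by genotype in excitatory neurons 13, 0 in each direction, stayed 0 with DESeq2, RLE scaling, a fold change above 1.5 or none and without marked doublets. The minimum of 1500 UMIs left out 0 nuclei and shows nothing. Without a filter on low counts it was 15 higher and 24 lower. Leaving out 1 mouse gave 0 to 108 higher and 0 to 29 lower, the most without control replicate 2, with 22 and 8 without mutant replicate 1, 5 and 3 without mutant replicate 2 and 0 and 0 without control replicate 1. The labels give replicate numbers but no pairing, and deviations of same-numbered mice correlated at 0.19. With 2 mice per genotype both pairs must give this same value, so it is 1 correlation. With a replicate block 49 genes were higher and 33 lower, and all 82 had an unadjusted p below 0.05 without it. The cause of these changes was not tested.

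Leaving out 1 mouse, *Vwc2l* ranged from -0.033 to 0.28, *Cntn6* from -0.34 to 0.19 (with 0.04 without mutant replicate 2), *Hs3st4* from -0.045 to 0.036 and *Trps1* from -0.044 to 0.55, and none of these 4 passed. Without control replicate 2, *Gm12394*, *Tmem163*, *Erbb4*, *Ahsa1*, *Hsph1*, *Caly* and *Haghl* passed (edgeR FDR from 6.45e-06 to 0.0482). The share of nuclei reversed to -0.91 with excitatory neurons 8, 10 and 13 as denominator. With the replicate block the share was 0.84 (edgeR FDR = 0.895).

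For the interaction, 0 genes above and 1 below became 1 and 4 against excitatory neurons 10 alone, 0 and 0 against 8 alone, 6 and 8 against CA1, 2 and 7 without a filter, 2 and 5 against 7, 8 and 10, and 0 and 0 against 7 alone. With clusters as separate samples 0 were below without and with a replicate block, and the *Trps1* difference was -1.91 and -1.89 (edgeR FDR = 1.00 in both). Leaving out 1 mouse gave 0 to 2 above and 0 to 5 below. The *Trps1* difference was 0.19 against 8 alone, 0.14 against CA1 and -0.33 against 7 alone. The *Cntnap5a* difference, 0.12, ranged from -0.16 to 0.34 without 1 mouse, and was -0.33 against 7, 8 and 10 and -0.31 against 7 alone.

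In bulk RNAseq 1 marker called lower became 0 with 15 markers or the replicate block, 2 with DESeq2 or no filter, and 0 to 4 without 1 library: 4 without mutant replicate 1, 2 without mutant replicate 2 and 0 without either control. The median lay between -0.12 and 0.05 there. Ratios within single mice were 3.79 for *Vwc2l* and 3.97 for *Cntn6* in mutant replicate 1, 3.56 and 3.22 for *Olfm3* in mutant replicates 1 and 2, and 1.22, 1.21 and 1.37 for *Hs3st4* in mutant replicates 1 and 2 and control replicate 1. Depth limits genes of few UMIs, such as *Wls*.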
